A study of Mus musculus with 4 samples.

Results

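The GATA factors and their cofactors were followed in 3 mouse liver cell lines: Gata2, Gata3, Gata4, Gata5, Gata6, Zfpm1 and Zfpm2. The 7 genes were chosen by name: every probe set was taken whose platform annotation gave 1 symbol and that symbol was a member. They made up 14 of 45037 probe sets without controls and 7 of 18193 named genes, and no member had a probe set shared with another gene. The data were 4 Affymetrix Mouse430_2 arrays, each made from 5 μg of total RNA. MMH-D3, a differentiated hepatocytic line, was hybridised to 2 arrays. The resident liver stem cell lines (RLSC) were MetE14/3 and WTE14/1, with 1 array each. MetE14/3 is 1 clone, B2, grown out of embryonic liver (14 days post coitum) with the cyto-Met transgene. WTE14/1 was grown out of liver of the same age labelled wild type, and its source name reads WT E14/3.

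The cyto-Met transgene encodes a truncated, active form of the HGF receptor Met, driven by regulatory sequences of the alpha-antitrypsin gene, which is active in hepatocytes. MMH lines were derived from livers carrying it, so MMH-D3 and MetE14/3 share this origin and WTE14/1 does not. The labels give no age for the animal behind MMH-D3. All primary cultures used medium with 10% serum, 50 ng/ml EGF, 30 ng/ml IGF-II and 10 μg/ml insulin. Colonies chosen for palmate shape were then grown in a basal medium with serum for about 50 generations to give the RLSC lines, so line, selection and medium cannot be told apart in the comparison with MMH-D3. No label gives separate cultures for the arrays of MMH-D3, so the p-values below measure just the spread among these 4 samples, and part of it may be technical.

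GATA factors are zinc finger proteins that bind the DNA letters GATA in promoters and enhancers. Gata1, Gata2 and Gata3 are known for blood, endothelial and lymphoid development, and Gata4, Gata5 and Gata6 for heart, gut and liver endoderm and the mesenchyme around the liver bud. Zfpm1 (FOG1) and Zfpm2 (FOG2) are multi-zinc-finger cofactors that bind the amino-terminal finger of GATA proteins and bring in the NuRD chromatin complex. In the developing liver, Gata4 and Gata6 act in bud outgrowth, and Gata4 is also a factor of sinusoidal endothelium and stellate cells.

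Promoter windows of 300 bases, 250 before and 50 after an annotated start, were taken from RefSeq (GRCm38.p6). They are reported here for 4 of the 7 members, Gata2, Gata3, Gata5 and Zfpm1, and are not reported here for the others. Shown are the windows of Gata5, the member that passed the test, and of Gata3, the one of these 4 with a GATA site. They run 5′ to 3′ on the strand of the gene, with motif matches in capitals.

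Gata5, chr2:180334630-180334929, minus strand: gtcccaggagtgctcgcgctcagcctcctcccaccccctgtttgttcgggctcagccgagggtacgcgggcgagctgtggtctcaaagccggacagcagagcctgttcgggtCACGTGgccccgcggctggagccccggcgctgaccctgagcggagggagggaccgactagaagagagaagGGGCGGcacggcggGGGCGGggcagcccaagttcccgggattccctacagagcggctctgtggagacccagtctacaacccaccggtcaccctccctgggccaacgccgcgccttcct

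Gata3, chr2:9878551-9878850, minus strand: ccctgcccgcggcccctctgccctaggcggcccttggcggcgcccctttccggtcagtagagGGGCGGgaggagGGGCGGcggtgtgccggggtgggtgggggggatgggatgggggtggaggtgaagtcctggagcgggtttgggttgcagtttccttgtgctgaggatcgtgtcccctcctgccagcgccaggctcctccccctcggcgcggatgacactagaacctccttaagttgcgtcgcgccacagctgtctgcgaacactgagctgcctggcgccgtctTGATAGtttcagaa

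The motifs searched, on both strands, were GATA sites (GATA preceded by A or T and followed by A or G), the GC box GGGCGG, the E box CACGTG, the CCAAT box by those letters and the TATA box written TATAAA. The Gata5 window held no match to these GATA sites, 2 GC boxes beginning 68 and 54 bases before the start, and 1 E box beginning 138 bases before it. The Gata3 window held 1 GATA match, TGATAG, beginning 36 bases after the start, and 2 GC boxes. Of 32851 promoter windows of this length, 29.8% held a GATA site, 35.7% a GC box, 7.15% the E box, 37.4% the CCAAT box and 13.6% the TATA box. The windows of both genes were rich in G and C, at 69.7% for Gata5 and 67.3% for Gata3, against a median of 52.7% over all windows. A match describes letters and does not show that a factor is bound there.

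Signals are the deposited linear values, which have no unit. Differences are RLSC minus MMH-D3 on the quantile normalized log2(signal + 4) scale, with the moderated standard error (SE) from limma, and adjusted p-values are Benjamini-Hochberg values over 12598 genes. A gene entered the test through its brightest probe set and only if its mean lay at or above the 40th percentile, a signal of about 11.7. Of the 7 members, 6 were tested, and Gata3 was not. Of the 6, 1 was lower and none was higher at an adjusted p under 0.05, against 0.516% of all tested genes lower and 0.397% higher. At an unadjusted limma p under 0.05, 2 members were lower (Gata5 and Gata6) and 0 higher, against 7.10% of all tested genes lower and 5.27% higher. Members also lay outside the range of the other group without passing. By normalized values, 3 of the 6 (Gata5, Gata6 and Zfpm1) had both RLSC lines below both MMH-D3 arrays, as did 21.4% of all tested genes, and 1 of the 6 (Zfpm2) had both above, as did 20.8%.

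**Figure D1:**
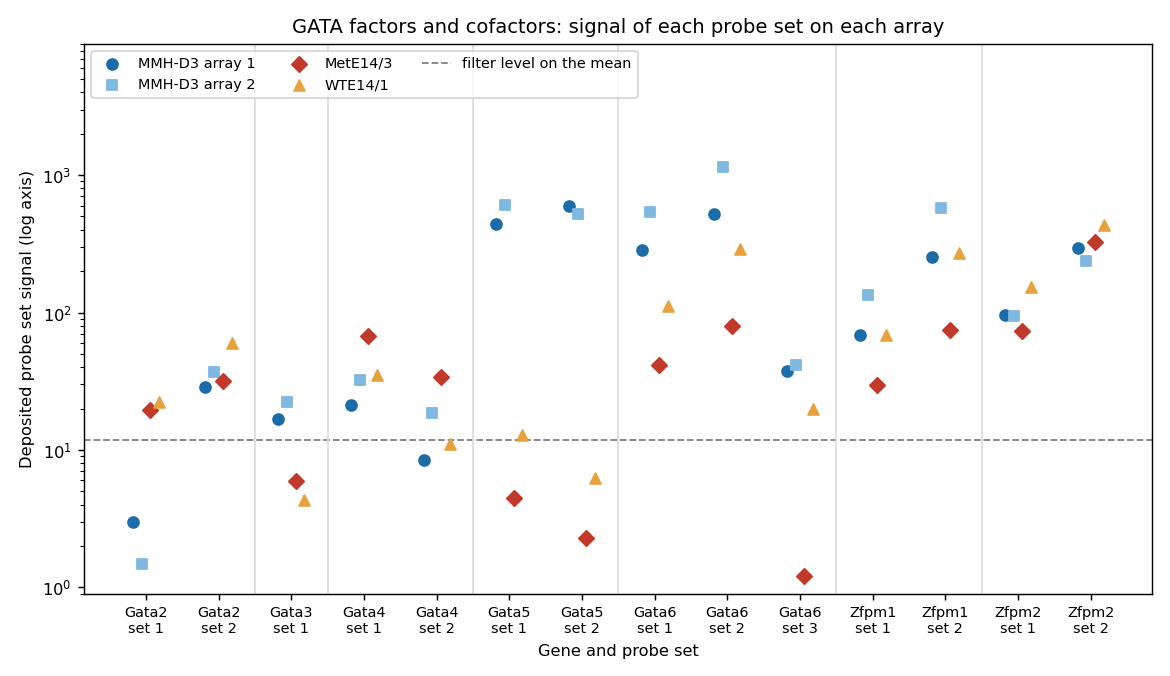
Deposited signal (log axis) of the 14 probe sets of the members on the 4 arrays, with the filter level of about 11.7 as a dashed line. Both Gata5 probe sets separate the MMH-D3 arrays (440 to 603) from the RLSC lines (2.30 to 12.9), while the tested Gata2 probe set lies between 28.6 and 59.7 on the 4 arrays.

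Before the results by gene, the arrays need a description. Median signals ran from 16.9 to 28.0. The 24 poly-A control probe sets, which report RNA spiked in before labelling, had a median ratio of 10.1 (from 5.63 to 23.8) between 1 pair of arrays, MetE14/3 with MMH-D3 array 1, and the other pair, WTE14/1 with MMH-D3 array 2. The 18 hybridization controls differed 0.879-fold. The arrays are therefore called the high and the low poly-A pair. Each pair holds 1 array of each group, and differences within each pair are given beside the pooled ones.

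Gata5 fell in the RLSC lines to the low end of the arrays. This factor is known for early heart, endoderm and gut epithelium. Its first probe set (1450125_at) read 440 and 603 on the MMH-D3 arrays, 4.50 in MetE14/3 and 12.9 in WTE14/1. The second probe set (1450126_at) read 596 and 519 on the MMH-D3 arrays, 2.30 in MetE14/3 and 6.28 in WTE14/1. In both probe sets the MMH-D3 arrays were high, both RLSC lines were low, and the groups did not overlap. For the first probe set, the MMH-D3 arrays stood at percentiles 85.8 and 88.6 of all probe sets on the array, and the RLSC lines at 22.5 and 34.1.

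The mean Gata5 signal was 521 ± 115 in MMH-D3 and 8.69 ± 5.93 in RLSC (SD, n = 2 each). The difference was -5.56 (SE 0.52, limma adjusted p = 0.0295), which placed Gata5 13th of 12598 genes by p-value. Within the high poly-A pair the difference was -5.71 and within the low pair -5.41. The RLSC signals lay around the filter level or under it, so the size depends on the pseudocount: it was -6.03 with a pseudocount of 1 and -4.53 with 16. When every probe set was fitted on its own, both passed, at -5.56 (limma adjusted p = 0.0232) and -6.21 (limma adjusted p = 0.0117). In a fit of all probe sets without a filter they had limma adjusted p-values of 0.04499 and 0.03085. With 1 probe set per gene, the call was lost without the filter (limma adjusted p = 0.0515). It was also lost without MMH-D3 array 1 or array 2, at differences of -5.70 and -5.37. There the lone MMH-D3 array is assumed to vary as the RLSC lines do. In RNA from a whole culture, fewer cells of a type and less RNA per cell cannot be told apart.

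Gata6, a close relative that acts in primitive endoderm, heart and liver bud, had lower values in the RLSC lines on each of its 3 probe sets, but did not pass. The probe set that entered the test (1425464_at) read 524 and 1142 on the MMH-D3 arrays, 79.2 in MetE14/3 and 288 in WTE14/1. A second (1425463_at) read 283 and 535 on the MMH-D3 arrays, 41.4 in MetE14/3 and 112 in WTE14/1. The dimmest (1443081_at) read 37.7 and 41.4 on the MMH-D3 arrays, 1.20 in MetE14/3 and 19.7 in WTE14/1. On all 3 the order was the same in the RLSC lines, MetE14/3 lowest and WTE14/1 between it and MMH-D3, with no overlap of the groups.

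The mean Gata6 signal was 833 ± 437 in MMH-D3 and 183 ± 147 in RLSC (SD, n = 2 each). The difference was -2.39 (SE 0.71, limma adjusted p = 0.234). This difference had an unadjusted limma p of 0.0143 and did not pass after adjustment over all genes tested. It was -2.71 within the high poly-A pair and -2.06 within the low pair, and with the array pair as a block the adjusted p from limma was 0.0778. The difference was -1.51 without MetE14/3 and -3.33 without WTE14/1. The probe sets fitted one by one gave -2.54, -2.39 and -2.23, with limma adjusted p-values of 0.164, 0.278 and 0.327.

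Gata4, the third of this subfamily and a regulator of heart, liver mesenchyme and foregut genes, was dim on all arrays and did not separate the groups. Its brighter probe set (1418863_at) read 21.3 and 32.3 on the MMH-D3 arrays, 67.9 in MetE14/3 and 35.4 in WTE14/1. The other (1418864_at) read 8.50 and 18.6 on the MMH-D3 arrays, 34.1 in MetE14/3 and 11.1 in WTE14/1. MetE14/3 was the highest array on both probe sets, and WTE14/1 lay near or within the MMH-D3 range. On the brighter one WTE14/1 was above both MMH-D3 arrays in deposited signal and just below them after quantile normalization. The difference was 0.52 (SE 0.61, limma adjusted p = 0.838), made of 1.18 within the high poly-A pair and -0.15 within the low one. Without MetE14/3 it was -0.0805, so its direction rests on that line.

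**Figure D2:**
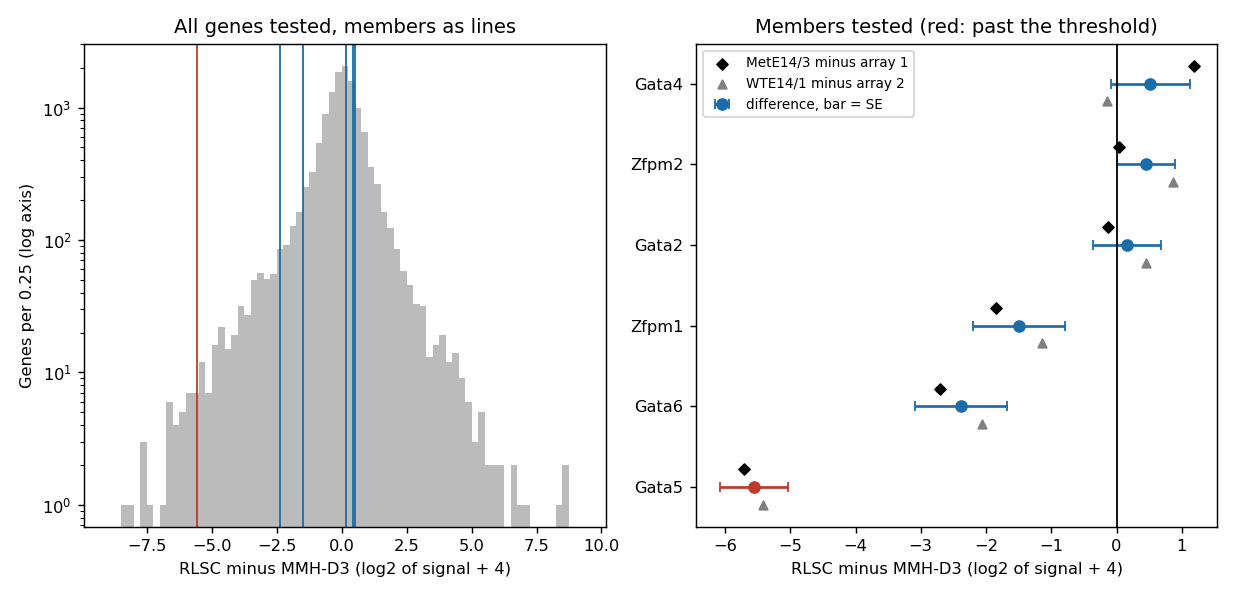
Left, the number of genes (log axis) at each difference between RLSC and MMH-D3 over the 12598 genes tested, with the 6 tested members as vertical lines. Right, the difference of each tested member with its SE (n = 2 arrays a group), and the difference within each poly-A pair as black diamonds and grey triangles; Gata5 at -5.56 (red) was the member past the threshold, and the 2 pairs lie on opposite sides of 0 for Gata2 and Gata4.

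Of the members known from blood, Gata2 maintains haematopoietic stem cells and endothelium, and Gata3 directs T cells, mammary epithelium and trophoblast. Gata2 had a tested probe set (1450333_a_at) that read 28.6 and 36.7 on the MMH-D3 arrays, 31.5 in MetE14/3 and 59.7 in WTE14/1. These overlapped, and the difference was 0.16 (SE 0.52, limma adjusted p = 0.955), -0.14 within the high poly-A pair and 0.45 within the low one. Its other probe set (1428816_a_at), which lay below the filter, read 3.00 and 1.48 on the MMH-D3 arrays, 19.6 in MetE14/3 and 22.4 in WTE14/1. There both RLSC lines were above both MMH-D3 arrays, by 1.83 in a fit of all probe sets without a filter (SE 0.55, limma adjusted p = 0.395). The Gata2 probe sets thus gave different pictures, and neither passed.

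Gata3 had 1 probe set (1448886_at), below the filter. It read 16.9 and 22.3 on the MMH-D3 arrays, 5.90 in MetE14/3 and 4.33 in WTE14/1. Both RLSC lines lay under both MMH-D3 arrays, at levels near the floor of the arrays. In the fit of genes without a filter the difference was -1.54 (SE 0.56, limma adjusted p = 0.410), -1.32 within the high poly-A pair and -1.75 within the low one. Gata1, the erythroid relative that is no member of the set, also lay below the filter, at 7.90 and 11.5 on the MMH-D3 arrays, 10.7 in MetE14/3 and 17.8 in WTE14/1.

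The cofactors showed unlike values. Zfpm1, named for its role with Gata1 in red cells and megakaryocytes, read 255 and 575 on the MMH-D3 arrays, 74.3 in MetE14/3 and 270 in WTE14/1 on its tested probe set (1451046_at). The second probe set (1423603_at) read 68.1 and 133 on the MMH-D3 arrays, 29.6 in MetE14/3 and 69.0 in WTE14/1. On both, MetE14/3 was lowest, and WTE14/1 was level with MMH-D3 array 1. WTE14/1 lay slightly above that array in deposited signal and below it after quantile normalization, so whether the groups overlapped depended on the scaling. The difference was -1.49 (SE 0.71, limma adjusted p = 0.479), -1.84 within the high poly-A pair and -1.14 within the low one. Without MetE14/3 it was -0.62 and without WTE14/1 it was -2.42.

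Zfpm2, the cofactor of Gata4 in heart and gonad, read above the filter level on every array. Its brighter probe set (1449314_at) read 297 and 237 on the MMH-D3 arrays, 327 in MetE14/3 and 432 in WTE14/1. Both RLSC lines lay above both MMH-D3 arrays there, with a mean of 380 ± 74.3 against 267 ± 42.4 (SD, n = 2 each). On the other (1419012_at) the MMH-D3 arrays read 96.5 and 95.1, MetE14/3 73.5 and WTE14/1 152, which overlapped, with a difference of -0.0108. The difference on the brighter one was 0.45 (SE 0.44, limma adjusted p = 0.786), 0.038 within the high poly-A pair and 0.87 within the low one. On this probe set MMH-D3 array 1 minus array 2 was 0.45, and MetE14/3 minus WTE14/1 was -0.38. The difference between the groups did not pass.

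**Figure D3:**
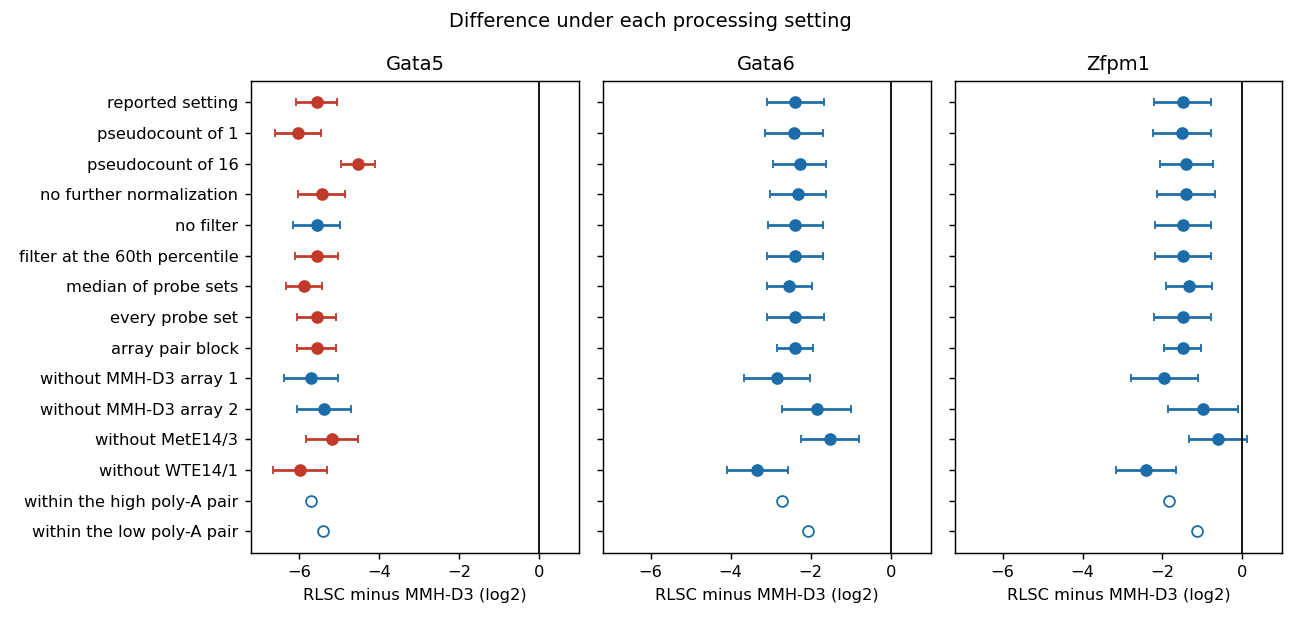
Difference between RLSC and MMH-D3 (log2) of Gata5, Gata6 and Zfpm1 under each processing setting; bars are SE, red marks an adjusted p under 0.05, blue a higher one, and open circles are differences within 1 poly-A pair, which have no test. The sign is negative in every setting drawn for the 3 genes, with Gata5 from -6.03 to -4.53, Gata6 from -3.33 to -1.51 and Zfpm1 from -2.42 to -0.62.

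The second comparison set MetE14/3 against WTE14/1. With 1 array a line there is no test, and the line cannot be told apart from the poly-A pair, so the values describe these arrays. No tested member differed by 4-fold or more, against 5.13% of tested genes, and 5.96% of genes did so between the arrays of MMH-D3. MetE14/3 was lower than WTE14/1 by -1.75 (log2) for Gata6 and -1.74 for Zfpm1. On these tested probe sets the MMH-D3 arrays differed in the same direction along the poly-A pairs. Array 1 minus array 2 was -1.10 for Gata6 and -1.03 for Zfpm1. The second Gata6 probe set (1425463_at) went the same way, at -1.15 between the lines and -0.80 between the MMH-D3 arrays. The dimmest Gata6 probe set (1443081_at) did not, at -1.86 between the lines and 0.27 between the MMH-D3 arrays. For Gata4, MetE14/3 was higher by 1.20, while the MMH-D3 arrays differed by -0.13. The line differences were -0.70 for Gata5, -0.50 for Gata2 and -0.38 for Zfpm2. The MMH-D3 differences for these genes were -0.41, 0.09 and 0.45.

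The genes around the GATA factors were described by lists of general knowledge. Context and marker lists share some genes, so their counts are not independent. Over all genes tested, the median difference was 0.03, the median absolute difference 0.45, and 12.4% (1558 of 12598) had an unadjusted limma p under 0.05. Other GATA-type zinc finger genes and subunits of NuRD differed by less than 1 on the log2 scale wherever they were tested. Of 17 genes, 15 were tested and none passed, also with 0 at an unadjusted limma p under 0.05. The median was 0.37, the median absolute difference 0.61, and the range ran from -0.87 to 0.99. Both RLSC lines were above both MMH-D3 arrays for 6 of the 15 and below for 1. Of all tested genes, 20.8% lay above in this way and 21.4% below. The histone-binding subunits Rbbp7 and Rbbp4 had the highest means. Rbbp7 read 5889 and 4016 on the MMH-D3 arrays and 6254 and 5732 in MetE14/3 and WTE14/1, a difference of 0.37 (SE 0.27). Rbbp4 differed by 0.63 (SE 0.33). Neither passed.

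Of 29 partner transcription factors, 21 were tested, 1 was higher and 1 lower, with a median of 0.32. At an unadjusted limma p under 0.05, 4 of the 21 were higher and 2 lower, against 5.27% of all tested genes higher and 7.10% lower. Without overlap, 7 lay above MMH-D3 and 4 below, against 20.8% of all tested genes above and 21.4% below. Tbx20, a T-box factor that works with Gata4 and Gata5 in the heart, rose from 0.400 and 2.85 on the MMH-D3 arrays to 78.6 in MetE14/3 and 196 in WTE14/1 (4.50, SE 0.65, limma adjusted p = 0.0444). Its MMH-D3 signals were near 0, so the size depends on the pseudocount. Wt1 is a zinc finger factor of mesothelium and gonad and is also among the mesothelial markers below. It fell from 192 and 398 on the MMH-D3 arrays to 9.20 in MetE14/3 and 14.8 in WTE14/1 (-4.30, SE 0.54, limma adjusted p = 0.0361). Its RLSC signals lay around the filter level, so this size depends on the pseudocount too. The LIM adaptor Lmo4 was named here after its values were seen. It read 1948 and 3965 on the MMH-D3 arrays and 422 and 587 in the RLSC lines. Its difference of -2.44 (SE 0.48, limma adjusted p = 0.0952) did not pass. Srf (1.48, SE 0.45), Fli1 (2.39, SE 0.86) and Ldb1 (1.28, SE 0.51), also named after their values were seen, had the opposite sign. These were higher at an unadjusted limma p under 0.05 and did not pass after adjustment.

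Of 31 genes listed from general knowledge as endoderm and liver targets, 28 had a probe set and 21 were tested. Alb, Ttr and Hnf4a are also among the hepatocyte markers below. The median of the list was -0.33, 1 gene was lower and none higher, and differences ran from -4.90 to 3.82. Of the 21, 14 had an unadjusted limma p under 0.05, 8 lower and 6 higher in RLSC. Without overlap, 10 lay below MMH-D3 and 6 above, against 21.4% of all tested genes below and 20.8% above. Afp, the fetal serum protein alpha-fetoprotein, fell from 1456 and 923 on the MMH-D3 arrays to 75.8 in MetE14/3 and 134 in WTE14/1 (-3.50, SE 0.47, limma adjusted p = 0.0391). Dab2, an endocytic adaptor of primitive endoderm named after its values were seen, read 1407 and 821 on the MMH-D3 arrays and 236 and 207 in the RLSC lines. Its difference of -2.27 (SE 0.44, limma adjusted p = 0.0917) did not pass. The basement membrane collagen Col4a1, also named after its values were seen, read 1408 and 1151 on the MMH-D3 arrays and 3145 and 4166 in the RLSC lines. Its difference of 1.56 (SE 0.31, limma adjusted p = 0.0989) had the opposite sign and did not pass either.

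Of 19 heart and smooth muscle genes, 10 were tested, 1 was higher and none lower, with a median of 0.25. At an unadjusted limma p under 0.05, 1 was higher and 1 lower, against 5.27% of all tested genes higher and 7.10% lower. The lower one was Tnnt2 (-1.66, SE 0.58, limma adjusted p = 0.315), which is also among the cardiac muscle markers below. Smarcd3 is a chromatin remodelling subunit that works with Gata4 and Tbx5 in the heart. It rose from 7.30 and 13.7 on the MMH-D3 arrays to 373 in MetE14/3 and 266 in WTE14/1 (4.38, SE 0.51, limma adjusted p = 0.0331). Its MMH-D3 signals lay around the filter level, so the size depends on the pseudocount. Of 19 blood and endothelial genes, 8 were tested and none passed (median -0.33), with 1 higher and 1 lower at an unadjusted limma p under 0.05. The adhesion molecule Vcam1 read 1456 and 3523 on the MMH-D3 arrays and 372 and 955 in the RLSC lines (-1.86, SE 0.65, limma adjusted p = 0.311). The surface sialomucin Cd34, named after its values were seen, had the opposite sign. It read 12.4 and 8.69 on the MMH-D3 arrays and 94.1 and 164 in the RLSC lines (2.99, SE 0.57, limma adjusted p = 0.0880). The size depends on the pseudocount, as the MMH-D3 signals of Cd34 lay around the filter level. The integrin Itga2b read between 40.5 and 107 on all arrays. Of 20 genes linked to Gata3 in lymphoid, mammary, trophoblast and sympathetic cells, 9 were tested and none passed (median -0.49), with 3 lower and 0 higher at an unadjusted limma p under 0.05. The keratins Krt18 (-0.77, SE 0.23) and Krt8 (-1.07, SE 0.38) were its brightest members and also lay below both MMH-D3 arrays.

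**Figure D4:**
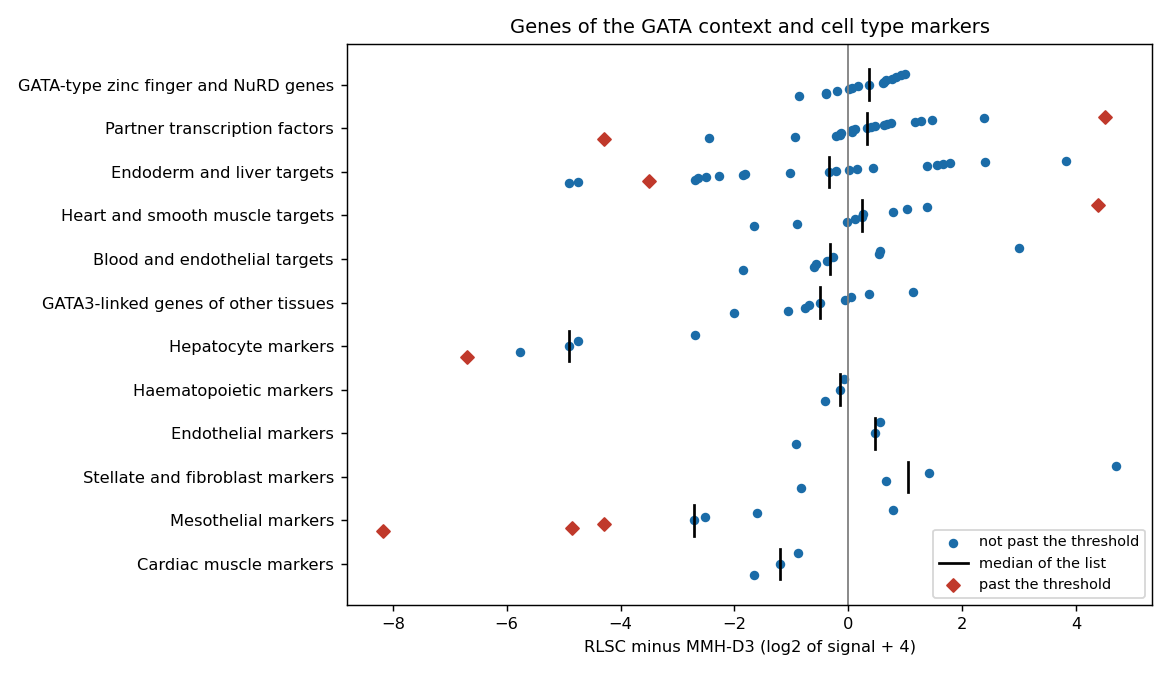
Difference between RLSC and MMH-D3 (log2) of each tested gene of 6 lists of the GATA context and 6 lists of cell type markers; black bars are list medians and red diamonds are genes at an adjusted p under 0.05. The context lists have medians from -0.49 to 0.37, and the hepatocyte and mesothelial markers have medians of -4.90 and -2.71.

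Among the cell type markers, those that passed were mesothelial or hepatocyte genes, and all were lower in the RLSC lines, as Gata5 was. No endothelial, haematopoietic, stellate and fibroblast or cardiac muscle marker passed. Mesothelial markers, of which 7 of 8 were tested, had a median of -2.71, with 3 lower (Upk1b, Wt1 and Bnc1) and none higher. Upk1b, a uroplakin, read 6289 and 6229 on the MMH-D3 arrays and 25.1 and 13.2 in the RLSC lines (-8.17, SE 0.51, limma adjusted p = 0.0150). The zinc finger gene Bnc1 differed by -4.85 (SE 0.65, limma adjusted p = 0.0386). The summed signal of the 8 mesothelial markers was 14316 and 18911 on the MMH-D3 arrays, 3591 in MetE14/3 and 2556 in WTE14/1. Msln, which did not pass, made up most of the RLSC sums. It read 6073 and 11154 on the MMH-D3 arrays, 2963 in MetE14/3 and 2106.5 in WTE14/1 (-1.61, SE 0.365, limma adjusted p = 0.1325). Podxl had the opposite sign (0.78, SE 0.66) and did not pass. Hepatocyte markers, of which 5 of 9 with a probe set were tested, had a median of -4.90, and 1 of them, Apob, was lower (-6.70, SE 0.85, limma adjusted p = 0.0371). Their summed signal was 4054 and 8907 on the MMH-D3 arrays, 309 in MetE14/3 and 79.9 in WTE14/1. The MMH-D3 arrays lay further apart for Apoa1 (44.6 and 1951), Alb (44.7 and 440.5) and Ttr (19.8 and 144) than for Hnf4a (1049 and 1687). Hnf4a read 205 in MetE14/3 and 6.76 in WTE14/1. The part of these cell states in the Gata5 result was not tested. Of the hepatocyte markers Tat, Cps1, Fgb and Ahsg lay below the filter although MMH-D3 is labelled hepatocytic, with Fgb at 0.800 and 17.0 on the MMH-D3 arrays.

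Markers of endothelial and blood cells, which are known to carry GATA factors, were low on all arrays. Of the endothelial markers, 3 of 9 were tested and none passed, and their summed signals were 60.3 and 153 on the MMH-D3 arrays, 72.9 in MetE14/3 and 117 in WTE14/1. The endothelial adhesion molecule Pecam1 read at most 5.07. The brightest 2 that were tested, Kdr (0.56, SE 0.79) and Esam (-0.92, SE 0.61), read at most 36.5. Of the haematopoietic markers, 6 had a probe set, 3 were tested and none passed, with summed signals from 88.3 to 146. Cd68 differed by -0.084 (SE 0.51) and Laptm5 by -0.15 (SE 0.58). At an unadjusted limma p under 0.05 there were 0 endothelial, 0 haematopoietic, 1 stellate and fibroblast (higher) and 1 cardiac marker (lower). Of the stellate and fibroblast markers, 4 of 10 were tested and none passed (median 1.04). Pdgfrb, a growth factor receptor of pericytes and stellate cells, read 0.200 and 1.19 on the MMH-D3 arrays, 248 in MetE14/3 and 65.8 in WTE14/1 (4.70, SE 0.80, limma adjusted p = 0.0670). Its MMH-D3 signals were near 0, so the size depends on the pseudocount. Col1a2 differed by 0.67 (SE 0.52), Col3a1 by 1.42 (SE 1.04) and Des by -0.83 (SE 0.66). Dcn, Lum and Reln were below the filter, with both RLSC lines below both MMH-D3 arrays. Of the cardiac muscle markers, 3 of 7 were tested and none passed. The troponin gene Tnnt2 read 2165 and 2414 on the MMH-D3 arrays, 1276 in MetE14/3 and 404 in WTE14/1, the calcium channel Ryr2 differed by -0.89, and the cardiac myosin gene Myh6 read at most 8.40.

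Genes with the profile most like a member were named by the root mean square distance of centred log2 values over the 4 arrays, for the 3 members that spanned at least 2 on that scale. The nearest to Gata5 were the zinc transporter Slc39a4 (distance 0.272), the kinase Ripk3 (0.284) and Rassf9 (0.308), with Slc39a4 at 608 and 526 on the MMH-D3 arrays, 5.40 in MetE14/3 and 20.1 in WTE14/1. The nearest to Gata6 were Rasip1 (0.158), the protease Htra3 (0.177) and the transporter Abcc5 (0.204). The nearest to Zfpm1 were App (0.0788), the matrix proteoglycan Agrn (0.0869) and Ttc39b (0.0918). With 4 points a gene, these distances describe the arrays and carry no test.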

How the data were processed

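RNA of MMH-D3 (2 arrays) and RLSC (MetE14/3 and WTE14/1) was measured on Affymetrix arrays. The deposited values are intensity signals per probe set, made by the authors with GCOS, per the submitters' processing notes; its version was not given in the sources used here. The number of arrays limits the precision. Probe sets were named from the platform annotation, with Entrez identifiers checked against RefSeq (GRCm38.p6); 34945 had 1 symbol and 0 symbols changed. After removal of 64 controls, log2(signal + 4) was quantile normalized, because array medians differed by 0.61. Groups were compared across all 12598 genes with limma 3.58.1 in R 4.3.3 (eBayes with trend, two-sided, 2 residual and 4.24 prior degrees of freedom). The fit was also run on simulated data with independent errors and large set differences. That run did not model line, culture or poly-A pair, so it checks the code and not the results. The members and lists were chosen with earlier results of these data known. Named were all members, up to 4 passing genes of each of 6 context lists and up to 3 of each of 6 marker lists (or the 2 brightest where none passed), and the 3 nearest genes of members spanning at least 2. Alternatives covered pseudocount, scaling, filter, probe set rule, array pair as a block and each array left out.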

Additional observations from a re-analysis of the deposited data

How the results depend on the processing

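Gata5, Gata6, Zfpm1 and Zfpm2 kept the sign of their RLSC minus MMH-D3 difference in all 14 alternatives each, though the dimmer Zfpm2 probe set on its own gave -0.0108, and Gata5 passed in 9 of the 12 that had a test (limma adjusted p from 0.0175 to 0.255). The direction of Gata2 and Gata4 turned: Gata2 was -0.14 within the high poly-A pair and ran from -0.10 to 0.39 with 1 array left out, and Gata4 was -0.15 within the low pair and ran from -0.0805 to 1.16; the cause was not tested. Without a filter on low signals, limma called 4 genes higher, 5 lower and 0 members (smallest adjusted p = 0.0153, 1912 genes at an unadjusted p under 0.05). With every probe set fitted on its own it called 92 higher and 106 lower, over more features. With 1 array left out the counts ran from 0 to 52 higher, 0 to 154 lower and 0 to 1 members; 154 were lower without MetE14/3, 9 higher and 18 lower without WTE14/1, and no gene passed without MMH-D3 array 1 or array 2, where 2197 and 1000 genes had an unadjusted p under 0.05. Genes at least 4-fold apart between MetE14/3 and WTE14/1 numbered 646, and 400 with a pseudocount of 16, 386 with the filter at the 60th percentile and 1218 over every probe set. Signals near the array floor limit Gata3, the dim Gata2 probe set and Gata5 in RLSC.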
